A study of Mus musculus with 42 samples.

Results

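The 10 genes of fatty acid uptake, binding and activation were followed in bone-marrow-derived macrophages (BMDMs) of the mouse given palmitate or bacterial lipopolysaccharide (LPS). They are Cd36, Slc27a1, Slc27a4, Fabp4, Fabp5, Acsl1, Acsl3, Acsl4, Acsl5 and Acot9, listed by symbol, with 10 of 10 found among the 37310 genes of the count table. The list was made with earlier results of these data known, so the counts of genes called below are descriptions. All 10 passed the filter on low counts, which kept 11624 genes, without help from any single group: the lowest library of the scarcest of them, Acsl3, held 30 reads. BMDMs are macrophages grown from marrow in culture with medium from L929 cells. Libraries labelled KO came from male, young adult mice with a floxed Irf5 crossed to LysM-Cre, in which the Lyz2 promoter drives Cre in myeloid cells, and libraries labelled WT from mice with intact Irf5. Each genotype was sampled without treatment at 0 h, and as Control, palmitate or LPS at 2 h and at 24 h, which gives 14 groups of 3 libraries and 42 libraries in all. Palmitate, a saturated fatty acid, was given with albumin from a stock made in ethanol, and whether the Control wells received that vehicle is not stated. The labels do not say whether the 3 libraries of a group came from separate mice, so the p-values measure the spread between these libraries, which may be technical.

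Long-chain fatty acids enter macrophages through CD36, a scavenger receptor that also binds oxidised lipoproteins, and through fatty acid transport proteins of the SLC27A family. Inside the cell, fatty acid binding proteins (FABPs) carry them through the cytosol, and long-chain acyl-CoA synthetases (ACSLs) join them to coenzyme A, which traps them and admits them to oxidation, storage or membrane lipid. Acyl-CoA thioesterases (ACOTs), such as the mitochondrial ACOT9, reverse that step. Several of these genes are known targets of the lipid-sensing nuclear receptors PPARs, and macrophages are also known to raise ACSL1 during inflammatory activation.

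The bases upstream of a transcription start are shown for Cd36, the most abundant of the genes per kilobase of exon, and Acsl1, whose level moved over the widest range. RefSeq promoter windows on GRCm38.p6 were at hand for 8 of the 10 genes, as 11 starts, and those of Fabp4 and Fabp5 were not used here. Each line below gives the 250 bases before a start, 5′ to 3′ on the gene's strand, and capitals mark a match to a motif.
Cd36, chr5:17835897-17836146, minus strand: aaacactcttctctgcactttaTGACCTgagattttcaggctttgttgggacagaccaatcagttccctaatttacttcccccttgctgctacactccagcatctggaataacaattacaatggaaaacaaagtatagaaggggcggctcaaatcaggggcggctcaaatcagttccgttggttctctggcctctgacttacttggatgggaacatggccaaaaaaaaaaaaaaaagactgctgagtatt
Acsl1 upstream start, chr8:46470787-46471036, plus strand: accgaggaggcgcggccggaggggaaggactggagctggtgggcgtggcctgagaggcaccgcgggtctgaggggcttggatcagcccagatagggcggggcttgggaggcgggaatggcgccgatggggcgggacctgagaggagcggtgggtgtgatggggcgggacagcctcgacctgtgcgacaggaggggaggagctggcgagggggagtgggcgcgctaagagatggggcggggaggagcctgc
Acsl1 downstream start, chr8:46490716-46490965, plus strand: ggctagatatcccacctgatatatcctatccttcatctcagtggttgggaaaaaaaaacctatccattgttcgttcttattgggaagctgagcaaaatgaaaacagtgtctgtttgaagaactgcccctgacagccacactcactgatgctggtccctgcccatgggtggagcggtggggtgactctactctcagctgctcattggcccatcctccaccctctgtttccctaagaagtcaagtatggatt
The motifs were searched on both strands. The PPAR response element, spelled as AGGTCA, any base and AGGTCA again, was in 0 of the 11 windows and in 0.0335% of 32851 windows of all genes. Its single hexamer AGGTCA, which the longer motif contains, was in 1 of the 11, that of Cd36, where it starts 228 bases before the start on the reverse strand, and in 14% of all windows. The kappaB site, spelled as GGGA, any base and TTTCC, was in 0 of 11 and in 0.356% of all windows. With motifs this rare among all windows, 0 of 11 carries no information, and other spellings of either site were not searched. A match is only a run of letters, and the absence of a match says nothing about binding in these windows or elsewhere. The Cd36 start lies inside the annotated gene (GRCm38, chr5:17781690-17888801), and the upstream start of Acsl1 is the first base of its gene (chr8:46471037-46536051).

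The libraries held 2848793 to 7743442 counted reads (median 5625399), and 3 reads, the floor used here, came to 0.397 to 1.14 counts-per-million (CPM), which scale counts to the library's size. Counts of Irf5 did not separate the labels, at 210 to 389 CPM in WT and 267 to 430 CPM in libraries labelled KO. A gene count includes exons that a floxed allele keeps, so it does not check the deletion, and "labelled KO" is used throughout. Lyz2, whose locus carries Cre, was at 8030 to 14600 CPM in WT and 4680 to 8770 CPM in libraries labelled KO. The 8 macrophage markers summed to 5100 to 9380 CPM. Of 7 adipocyte markers only Lpl, which macrophages also make, passed the filter, and Adipoq stayed at or below 0.38 CPM. Granulocyte precursor markers (5 of 8 tested) summed to group means of 26.3 to 69.4 CPM in WT and 53.6 to 159 CPM in libraries labelled KO, and fibroblast markers (3 of 6 tested) ranged from 0 to 306 CPM between libraries. The treatments acted: Plin2, the lipid droplet coat protein, rose with palmitate at 24 h by 1.99 ± 0.06 (log2, ± SE) in WT, and Tnf rose with LPS at 2 h by 4.77 ± 0.09.

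All 10 genes are annotated as protein-coding, on GRCm38. Besides Cd36 and Acsl1, whose positions are given above, Slc27a1 lies at chr8:71568882-71587302, Slc27a4 at chr2:29802634-29817522, Fabp4 at chr3:10204088-10208576 and Fabp5 at chr3:10012548-10016607, so both binding proteins share a chromosome. Acsl3 lies at chr1:78657825-78707743, Acsl4 at chrX:142317993-142390535, Acsl5 at chr19:55251938-55297720 and Acot9 at chrX:155262443-155297654. Levels spanned a wide range. Per kilobase of merged exons and averaged over the 14 groups, Cd36 stood at 513 CPM per kb and Fabp5 at 273 CPM per kb. Next came Acsl4 at 27.2, Acsl5 at 23.2, Acot9 at 13.6, Fabp4 at 12.2, Slc27a1 at 11.7, Acsl1 at 11.1, Slc27a4 at 4.73 and Acsl3 at 2.86 CPM per kb. Over the 6 Control groups the means of Acot9 (11.4 to 14.1 CPM per kb), Fabp4 (9.18 to 16.5) and Slc27a1 (8.17 to 12.1) overlapped, so these neighbours had no fixed order. Acsl1 was lower in the Control groups, at 4.49 to 5.85 CPM per kb, which overlapped with Slc27a4 (4.26 to 5.52). Its mean over the 14 groups includes its high LPS levels. With the length of coding transcripts in place of merged exons, Fabp5 moved ahead of Cd36 (986 against 680 CPM per kb) and Fabp4 moved to the third place at 61.0 CPM per kb. Acsl1 moved from place 8 to place 4, at 31.9 CPM per kb. From the lowest to the highest of the 14 group means, Acsl1 moved 7.79-fold, Fabp4 4.44-fold, Acsl3 3.45-fold, Cd36 3.35-fold and Acsl5 2.24-fold. The others moved less, with 1.33-fold for Slc27a4 at the low end.

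**Figure D1:**
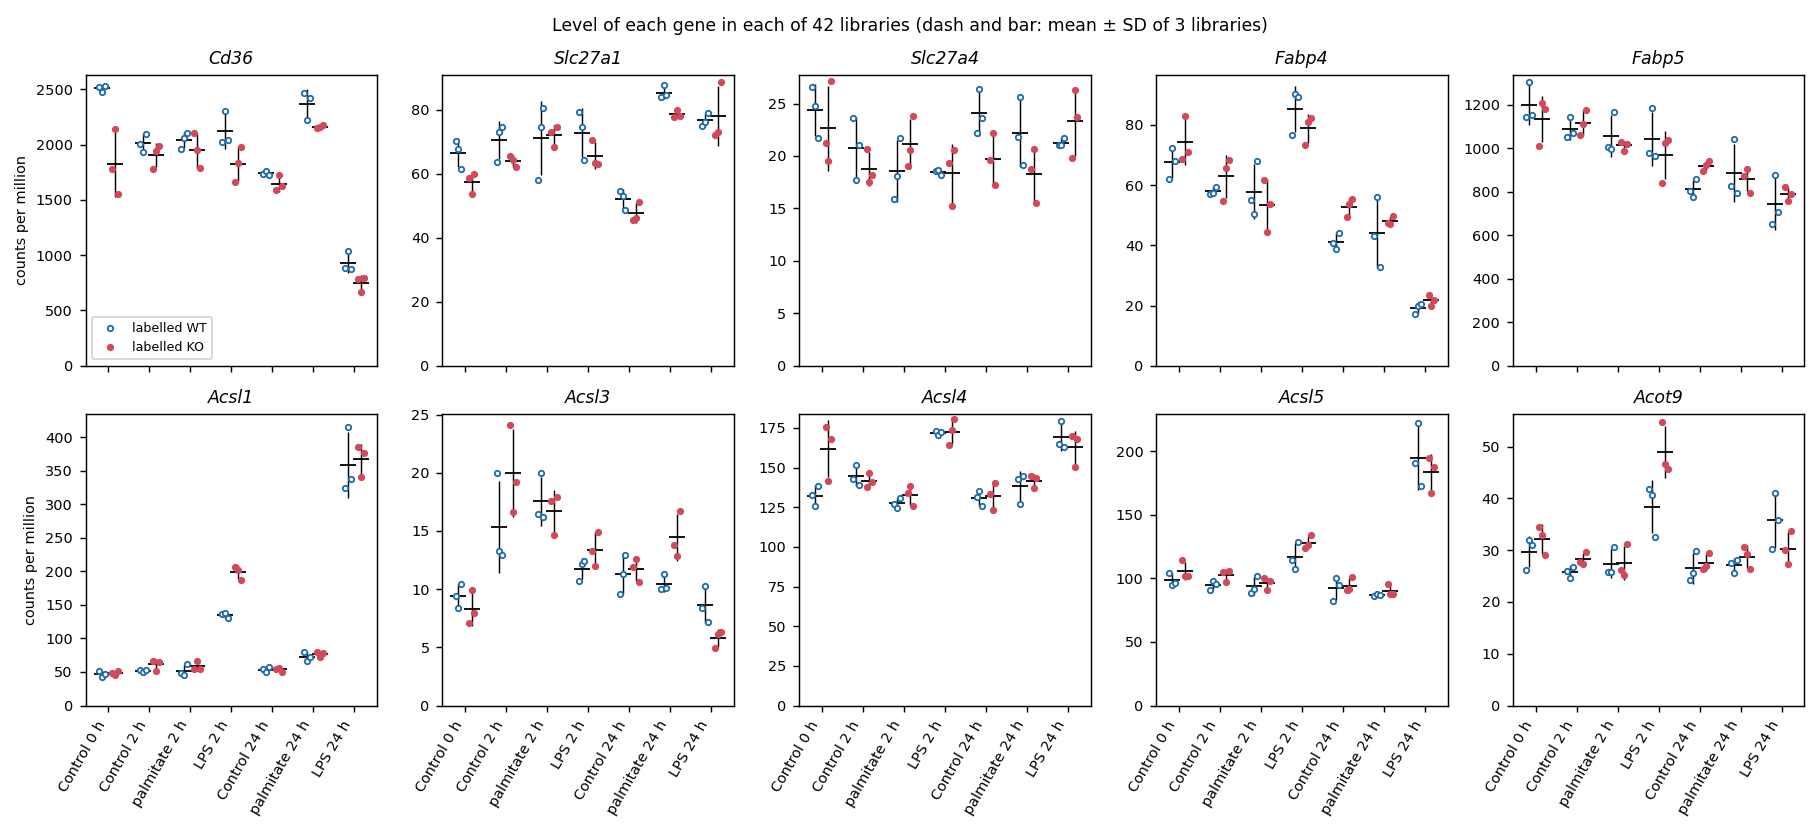
CPM of the 10 genes (vertical axes from 0) in each of 42 libraries, by condition on the horizontal axis, with open circles for WT, filled circles for libraries labelled KO, and a dash and bar for mean ± SD of 3 libraries. Acsl1 and Acsl5 are highest and Cd36 and Fabp4 lowest at LPS 24 h, while Slc27a4 stays between 15.2 and 27.2 CPM.

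The first comparison asked how each gene answered palmitate or LPS against time-matched Control cells of its own genotype. A gene is called changed here when its adjusted p from edgeR's quasi-likelihood test, Benjamini-Hochberg adjusted over the 11624 genes, is below 0.05. Of the 80 tests (10 genes in 8 comparisons), 32 were called, 25 higher and 7 lower, and 9 of the 10 genes were called at least once. In a single one of these comparisons 0.112% to 40.9% of all genes were called, as given for each below. In these bulk samples fewer cells of a type and less RNA per cell cannot be told apart. Marker sums of other cell types also differed between treatments. Fibroblast markers in libraries labelled KO summed to 39.5 to 133 CPM at Control 24 h and 0 to 7.32 CPM at palmitate 24 h (WT 2.74 to 45.2 and 0.346 to 10.2). Granulocyte precursor markers summed to 128 to 198 CPM at Control 24 h and 42 to 63.2 CPM at LPS 24 h (WT 51.4 to 61.2 and 30.6 to 33.4). Their part in the changes was not tested. Palmitate and LPS at a given time share their Control libraries, so the comparisons are given side by side.

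Palmitate changed none of the 10 genes at 2 h by edgeR. At an unadjusted p under 0.05, 1 gene in each genotype passed (Acsl4 in WT, Fabp4 in libraries labelled KO), DESeq2 called 0 in each, and of all genes 0.275% were called in WT and 0.112% in libraries labelled KO. At 24 h the same 3 genes rose in both genotypes: the uptake genes Cd36 and Slc27a1 and the synthetase Acsl1. That is 3 of 10 where 0.852% of all genes were called in WT, and 3 of 10 where 0.877% were called in libraries labelled KO (0.671% and 0.637% higher). Since the list was made with earlier results of these data known, this excess is no independent evidence. The median log2 fold change of the 10 was 0.09 and 0.07, against 0.00 for all genes in each case.

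Cd36 at 24 h stood at 1735, 1757 and 1729 CPM in the WT Control libraries and at 2470, 2220 and 2419 CPM with palmitate. Among libraries labelled KO it went from 1590, 1724 and 1621 CPM to 2146, 2163 and 2173 CPM. Every palmitate library lay above every Control library of its genotype at 24 h. The mean with palmitate in WT, 2370 CPM, was below the mean at 0 h, 2507 CPM. In libraries labelled KO it was above, at 2161 against 1825 CPM. Palmitate at 24 h was not tested against 0 h. The log2 fold change was 0.45 ± 0.08 (adjusted p = 0.0003188) in WT and 0.39 ± 0.08 (adjusted p = 0.002087) in libraries labelled KO.

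Slc27a1, which encodes the transport protein FATP1, had the largest response to palmitate of the 10. Its WT Control libraries at 24 h held 54.7, 53.1 and 48.7 CPM, and its palmitate libraries 84.1, 87.7 and 84.6 CPM. Libraries labelled KO gave 45.4, 46.3 and 51.3 CPM against 77.7, 80.0 and 78.1 CPM. The groups did not overlap, and the log2 fold changes were 0.72 ± 0.09 (adjusted p = 8.477e-07) and 0.71 ± 0.09 (adjusted p = 1.292e-06). The other transporter, Slc27a4 (FATP4), was not called in any of the 8 treatment comparisons, with log2 fold changes from -0.18 to 0.24.

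Acsl1 under palmitate at 24 h read 79.0, 66.8 and 72.7 CPM in WT against 54.2, 49.2 and 57.0 CPM in Control. The libraries labelled KO read 79.5, 72.6 and 78.5 CPM against 54.9, 56.0 and 50.4 CPM. Both genotypes moved without overlap, by 0.45 ± 0.10 (adjusted p = 0.01675) and 0.52 ± 0.10 (adjusted p = 0.00233). The WT call was lost without Control library 1 (0.46, adjusted p = 0.05767), Control library 2 (0.39, adjusted p = 0.1806) or palmitate library 1 (0.38, adjusted p = 0.1601), where the numbers only name libraries.

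**Figure D2:**
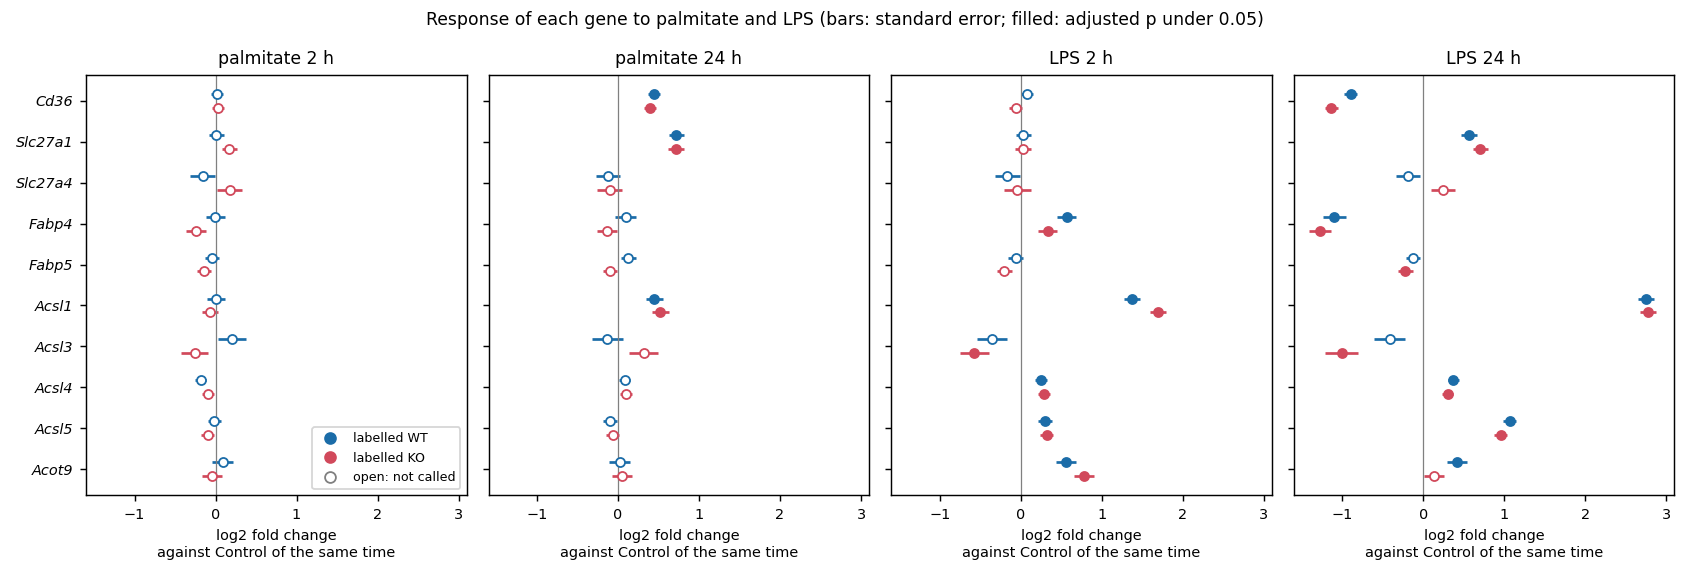
Log2 fold change (horizontal axis) of each gene against the Control of the same time, by treatment and time, in blue for WT and red for libraries labelled KO. Bars are standard errors and filled points have an adjusted p under 0.05: no point is filled for palmitate at 2 h, Cd36, Slc27a1 and Acsl1 are filled for palmitate at 24 h, and Acsl1 lies farthest right for LPS.

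LPS at 2 h raised synthetases, a binding protein and the thioesterase. Acsl1, Acsl4, Acsl5, Fabp4 and Acot9 rose in both genotypes, which is 5 of 10 in WT, where 23.1% of all genes were called (14% higher). In libraries labelled KO 6 of 10 were called, where 23.9% of all genes were (14.7% higher, 9.16% lower), and the sixth was Acsl3, which fell. Cd36, Slc27a1 and Slc27a4 were not called at 2 h, with log2 fold changes between -0.16 and 0.08.

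Acsl1 had the largest rise. Its Control libraries at 2 h held 52.8, 49.6 and 53.3 CPM in WT, and its LPS libraries 136, 138 and 130 CPM. The libraries labelled KO went from 67.0, 51.4 and 65.5 CPM to 207, 203 and 186 CPM. The log2 fold changes were 1.37 ± 0.10 (adjusted p = 2.693e-16) and 1.69 ± 0.10 (adjusted p = 2.27e-20), so that LPS libraries held 2.58 and 3.23 times the Control level.

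Acot9, the mitochondrial thioesterase, rose from 25.9, 24.7 and 26.8 CPM to 41.9, 40.7 and 32.5 CPM in WT, by 0.56 ± 0.13 (adjusted p = 0.000493). In libraries labelled KO it rose from 27.7, 27.4 and 29.7 CPM to 54.7, 46.6 and 45.6 CPM, by 0.78 ± 0.12 (adjusted p = 9.904e-07). Acot10 on chromosome 15 is 97.1% identical to Acot9 over 1488 bases, but its row averaged 0.214 reads against 172 for Acot9. No library of either genotype overlapped with its Control.

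Fabp4, the binding protein best known from adipocytes and present in macrophages, also rose at 2 h. It read 76.6, 90.2 and 89.1 CPM with LPS against 56.9, 57.4 and 59.4 CPM in WT Control, a change of 0.57 ± 0.12 (adjusted p = 0.0001644). In libraries labelled KO it read 73.3, 80.8 and 82.4 CPM against 54.7, 65.7 and 68.2 CPM, a change of 0.33 ± 0.12 (adjusted p = 0.03395). This second call was lost without Control library 1 (0.23, adjusted p = 0.2295), Control library 2 (0.35, adjusted p = 0.05604), LPS library 2 (0.32, adjusted p = 0.09743) or LPS library 3 (0.29, adjusted p = 0.1286). Fabp5, its epidermal-type relative, was not called at 2 h, at -0.06 ± 0.09 in WT and -0.20 ± 0.09 in libraries labelled KO. In the latter it was called without LPS library 3 (-0.27, adjusted p = 0.04944) and without the count filter (-0.22, adjusted p = 0.004453).

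The rises of Acsl4, which favours arachidonic acid, and Acsl5 were smaller. Acsl4 moved by 0.25 ± 0.07 (adjusted p = 0.005976) in WT and 0.29 ± 0.07 (adjusted p = 0.001296) in libraries labelled KO, and Acsl5 by 0.30 ± 0.08 (adjusted p = 0.005244) and 0.32 ± 0.08 (adjusted p = 0.002722). The WT call of Acsl5 was lost without LPS library 3 (0.22, adjusted p = 0.1006). Acsl3 fell in libraries labelled KO, from 24.1, 16.7 and 19.2 CPM to 13.3, 12.0 and 14.9 CPM, by -0.58 ± 0.18 (adjusted p = 0.01324). That call was lost without Control library 1 (-0.43, adjusted p = 0.117) or LPS library 2 (-0.49, adjusted p = 0.08881), and in WT Acsl3 was at -0.36 ± 0.18 (adjusted p = 0.1736). Acsl3 shares 244 exon bases on the same strand with Utp14b, whose row averaged 61.0 reads against 70.0 for Acsl3. Whether reads from the shared bases were counted for either gene is not stated in the sources used here.

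At LPS 24 h the genes moved in opposite directions. In WT 7 of 10 were called (5 higher, 2 lower), where 39.5% of all genes were (19.6% higher, 19.9% lower), and in libraries labelled KO 8 of 10 (4 higher, 4 lower), where 40.9% were (19.9% higher, 21% lower). Acsl1, Acsl4, Acsl5 and Slc27a1 rose and Cd36 and Fabp4 fell in both. Acot9 rose in WT, and Acsl3 and Fabp5 fell in libraries labelled KO. The median log2 fold change of the 10 was 0.12 and 0.19, against -0.01 for all genes in both.

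Acsl1 reached 323, 415 and 337 CPM in WT, against 54.2, 49.2 and 57.0 CPM in Control. With the label KO it reached 385, 340 and 376 CPM, against 54.9, 56.0 and 50.4 CPM. These are the highest values of Acsl1 among the 42 libraries. The log2 fold changes were 2.74 ± 0.10 (adjusted p = 6.203e-29) and 2.78 ± 0.10 (adjusted p = 3.168e-29).

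Acsl5, an isoform of mitochondria and endoplasmic reticulum, rose from 82.0, 100 and 94.8 CPM to 191, 222 and 172 CPM in WT, and from 90.6, 91.5 and 101 CPM to 195, 168 and 188 CPM in libraries labelled KO. The changes were 1.07 ± 0.08 (adjusted p = 5.058e-16) and 0.96 ± 0.08 (adjusted p = 1.879e-14), without overlap. Acsl5 shares 404 exon bases with Zdhhc6 on the opposite strand, and Zdhhc6 moved by 0.35 ± 0.12 and 0.41 ± 0.12 in the same comparisons. Acsl4 rose by 0.37 ± 0.07 (adjusted p = 1.7e-05) in WT and 0.30 ± 0.07 (adjusted p = 0.0003942) in libraries labelled KO.

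Acsl3, by contrast, fell with LPS at 24 h in libraries labelled KO, from 11.9, 12.6 and 10.6 CPM to 4.92, 6.16 and 6.30 CPM. Its log2 fold change was -1.01 ± 0.20 (adjusted p = 4.237e-05). In WT it read 8.39, 10.3 and 7.20 CPM against 9.54, 11.3 and 12.97 CPM, and the groups overlapped (-0.41 ± 0.19, adjusted p = 0.08052). Without WT LPS library 2 that change was called (-0.56, adjusted p = 0.03623). Its neighbour Utp14b moved by -1.07 ± 0.24 in WT and -0.86 ± 0.24 in libraries labelled KO.

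Cd36 fell to the lowest levels of the series. Under LPS at 24 h it read 883, 1041 and 877 CPM in WT and 787, 663 and 797 CPM in libraries labelled KO, below each Control library. The changes were -0.90 ± 0.08 (adjusted p = 5.46e-14) and -1.13 ± 0.08 (adjusted p = 1.786e-17). Slc27a1 moved the other way, to 75.1, 76.3 and 79.0 CPM in WT and 72.2, 73.0 and 88.9 CPM in libraries labelled KO, by 0.57 ± 0.09 (adjusted p = 1.92e-06) and 0.71 ± 0.09 (adjusted p = 1.456e-08). Cd36 and Slc27a1 thus moved apart under LPS at 24 h, while both had risen under palmitate against the same Control libraries.

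Fabp4 dropped with LPS at 24 h to 17.1, 19.9 and 20.7 CPM in WT, from 40.7, 38.7 and 44.1 CPM in Control. In libraries labelled KO it dropped to 23.6, 19.98 and 21.96 CPM from 49.4, 53.6 and 55.4 CPM. No library overlapped, and the changes were -1.10 ± 0.14 (adjusted p = 5.502e-09) and -1.27 ± 0.13 (adjusted p = 2.197e-11). Fabp5 fell in libraries labelled KO by -0.22 ± 0.09 (adjusted p = 0.04254), a call that was lost in 5 of the 6 fits without 1 library, with adjusted p from 0.05727 (without Control library 1) to 0.1408 (without LPS library 2). The other losses followed leaving out Control library 2, Control library 3 or LPS library 3. In WT, Fabp5 was at -0.13 ± 0.09 (adjusted p = 0.2728), and at -0.26 (adjusted p = 0.01924) without LPS library 2. Acot9 rose in WT by 0.42 ± 0.12 (adjusted p = 0.004965), which was lost without LPS library 2 (0.31, adjusted p = 0.06787), and was at 0.13 ± 0.12 (adjusted p = 0.4165) in libraries labelled KO.

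The second comparison asked whether a response changed between 2 h and 24 h, over both genotypes, as the difference of the responses to the same agent. For LPS 6 of 10 genes were called (46.3% of all genes were), and for palmitate 3 of 10 (1.28% of all genes). The LPS response of Fabp4 was lower at 24 h than at 2 h by -1.64 ± 0.13 (adjusted p = 1.659e-15), as it rose early and fell late. Cd36 followed with -1.02 ± 0.08 (adjusted p = 4.652e-16), and Acot9 with -0.39 ± 0.12 (adjusted p = 0.007331). Acsl1 grew by 1.23 ± 0.10 (adjusted p = 2.956e-15), Acsl5 by 0.70 ± 0.08 (adjusted p = 4.968e-10) and Slc27a1 by 0.61 ± 0.09 (adjusted p = 4.909e-07). The palmitate responses of Slc27a1, Acsl1 and Cd36 grew by 0.63 ± 0.09 (adjusted p = 2.845e-05), 0.52 ± 0.10 (adjusted p = 0.003173) and 0.39 ± 0.08 (adjusted p = 0.001905). DESeq2 added Acsl4 to these 3 (0.23, adjusted p = 0.0497), as did leaving out WT palmitate 24 h library 2 (0.26, adjusted p = 0.04769). So did a fit of only the libraries compared (0.23, adjusted p = 0.04178). Each such difference also holds the change of the Control. For Slc27a1 the Control mean over both genotypes went from 67.3 CPM at 2 h to 49.9 CPM at 24 h. Its LPS mean went from 69.3 to 77.4 CPM and its palmitate mean from 71.6 to 82.0 CPM. For Cd36 the Control mean went from 1959 to 1692.5 CPM and the palmitate mean from 1994 to 2265 CPM.

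**Figure D3:**
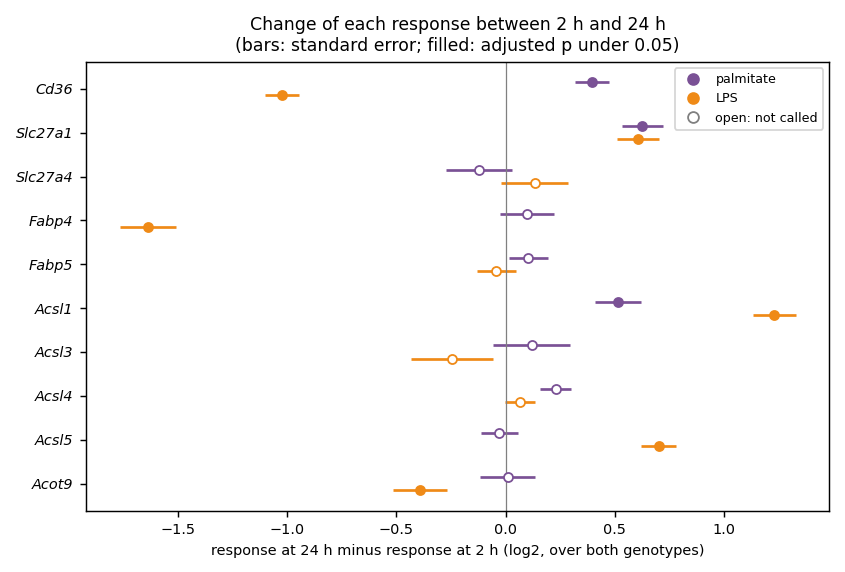
Response at 24 h minus response at 2 h (horizontal axis, log2, over both genotypes) for each gene, in purple for palmitate and orange for LPS, with standard errors as bars and filled points for an adjusted p under 0.05. Fabp4 at -1.64 and Cd36 at -1.02 lie farthest left under LPS, Acsl1 at 1.23 farthest right, and Slc27a1 lies at 0.61 for LPS and 0.63 for palmitate, which share Control libraries.

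LPS and palmitate were also compared with each other over both genotypes. At 2 h 6 of 10 genes were called (35% of all genes), with Acsl1 (1.56 ± 0.07), Acot9 (0.64 ± 0.09), Fabp4 (0.57 ± 0.08), Acsl4 (0.41 ± 0.05) and Acsl5 (0.37 ± 0.06) higher under LPS and Acsl3 (-0.44 ± 0.13) lower. At 24 h 8 of 10 were called (51.8% of all genes). Cd36 differed by -1.44 ± 0.06 (adjusted p = 7.234e-28), since palmitate libraries held 2146 to 2470 CPM and LPS libraries 663 to 1041 CPM. Acsl1 (2.28 ± 0.07), Acsl5 (1.09 ± 0.06) and Acsl4 (0.25 ± 0.05) were higher under LPS, and Fabp4 (-1.16 ± 0.10) and Acsl3 (-0.80 ± 0.14) were lower. Slc27a1 was not called, at -0.08 ± 0.06, as it had risen with both agents. Acot9 (0.24 ± 0.09) lost its call without WT LPS library 2 (adjusted p = 0.07792), KO LPS library 3 (adjusted p = 0.06198) or KO palmitate library 3 (adjusted p = 0.05059), and without the count filter (adjusted p = 0.0677). Fabp5 (-0.19 ± 0.06) lost its call without WT palmitate library 2 (-0.12, adjusted p = 0.09997) or WT LPS library 1 (-0.14, adjusted p = 0.06487).

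Several genes differed in Control cells at 2 h or 24 h from those at 0 h, over both genotypes. Culture time and any other difference in handling from the 0 h cells cannot be told apart here. At 2 h against 0 h 3 of 10 were called (16.7% of all genes). Acsl3 rose from 7.07 to 10.5 CPM over the 6 libraries at 0 h to 12.9 to 24.1 CPM at 2 h, by 0.97 ± 0.13 (adjusted p = 3.465e-08), and did not overlap. Its overlapping neighbour Utp14b rose by 1.35 ± 0.15 in the same comparison. Acsl1 rose by 0.24 ± 0.08 (adjusted p = 0.0198), and Fabp4 fell by 0.23 on the log2 scale (SE 0.08, adjusted p = 0.04505). The Acsl1 call was lost in 4 of 12 fits without 1 library, with adjusted p up to 0.07067 (without WT Control 0 h library 2), and the Fabp4 call in 9 of 12, up to 0.1659 (without KO Control 2 h library 1). Cd36 was called at 2 h only without KO Control 0 h library 3 (-0.17, adjusted p = 0.01847) or without the count filter (-0.12, adjusted p = 0.04441). At 24 h against 0 h 6 of 10 were called (16.5% of all genes). Fabp4 was at -0.60 ± 0.09 (adjusted p = 4.048e-07), Fabp5 at -0.43 ± 0.06 (adjusted p = 7.547e-07), Cd36 at -0.34 ± 0.05 (adjusted p = 4.998e-06) and Slc27a1 at -0.31 ± 0.07 (adjusted p = 0.0006961). The value of Cd36 is an average of unequal changes, since its mean went from 2507 to 1740 CPM in WT and, from a lower start, from 1825 to 1645 CPM in libraries labelled KO. Acsl4 at -0.15 ± 0.05 (adjusted p = 0.02596) lost its call in 7 of 12 fits without 1 library (up to 0.1381, without KO Control 0 h library 1) and without the count filter (adjusted p = 0.09206). The mean of Acsl4 was 132 CPM at 0 h and 131 CPM at 24 h in WT, so the pooled value came from libraries labelled KO, at 162 and 132 CPM. Acsl3 at 0.38 ± 0.13 (adjusted p = 0.04409) lost its call in 8 of 12 (up to 0.1376, without WT Control 24 h library 3).

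The third comparison set libraries labelled KO against WT in each of 7 conditions. Of 70 tests 3 were called, 12 had an unadjusted p under 0.05, and DESeq2 called 4. In a single condition 0.0688% to 12.5% of all genes were called. At Control 0 h Cd36 was lower and Acsl4 higher, 2 of 10 where 12.5% of all genes were called. Cd36 read 2518, 2471 and 2532 CPM in WT and 1779, 2140 and 1554 CPM in libraries labelled KO, without overlap (-0.46 ± 0.08, adjusted p = 3.899e-05). Acsl4 read 133, 126 and 139 CPM in WT and 176, 142 and 168 CPM in libraries labelled KO (0.29 ± 0.07, adjusted p = 0.003579), where KO library 2 lies nearest to WT. At this condition the granulocyte precursor markers summed to 47.2 to 54.4 CPM in WT libraries and 73.0 to 81.5 CPM in libraries labelled KO, and the fibroblast markers to 0.529 to 0.905 and 42.1 to 69.3 CPM. Endothelial markers (4 of 6 tested) summed to 22.6 to 30.6 CPM and 34 to 38.9 CPM. Over the 42 libraries the highest count of a single endothelial marker ran from 2 reads for Emcn to 211 for Vwf. What part these cell types had in the differences was not tested.

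At LPS 2 h Acsl1 was the 1 gene of 10 that was called (0.465% of all genes were), at 0.56 ± 0.09 (adjusted p = 0.0005384), with 207, 203 and 186 CPM in libraries labelled KO above 136, 138 and 130 CPM in WT. Granulocyte precursor markers here summed to 45.4 to 66.1 CPM in WT and 118 to 204 CPM in libraries labelled KO, and fibroblast markers to 0.371 to 0.716 and 0.759 to 152 CPM. Their part was not tested. In the other 5 conditions 0 of 10 genes were called by edgeR. The share of all genes called was 0.49% at Control 2 h, 0.146% at palmitate 2 h, 0.12% at Control 24 h, 0.0688% at palmitate 24 h and 0.146% at LPS 24 h. At an unadjusted p under 0.05 those 5 conditions gave 2, 0, 1, 1 and 2 genes in that order, and DESeq2 called 0 in the first 4 and 1, Cd36, at LPS 24 h (-0.32, adjusted p = 0.01993). The edgeR value of Cd36 there was -0.32 ± 0.08 (adjusted p = 0.09386). Over all conditions, called or not, Cd36 was below 0 in 7 of 7 (-0.46 to -0.07). Acsl1 was above 0 in 7 of 7 (0.002 to 0.56), and each other gene had values on both sides of 0. A shared direction over conditions was not tested.

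Whether a response differed between genotypes was tested directly as an interaction. No gene of the 10 was called by edgeR in any of the 4 interactions (0 of 40 tests), 4 of the 40 had an unadjusted p under 0.05, and DESeq2 called 0. Of all genes, 0% were called for palmitate 2 h, palmitate 24 h and LPS 2 h, and 0.0086% for LPS 24 h. The LPS 2 h response of Acsl1 was 0.32 ± 0.14 higher in libraries labelled KO (adjusted p = 0.6305), and the LPS 24 h response of Cd36 was at -0.24 ± 0.11 (adjusted p = 0.9245). Acsl3 had the widest value, -0.59 ± 0.28 at LPS 24 h (adjusted p = 0.9245). The calls in a single genotype given above for Acsl3, Fabp5 and Acot9 are therefore not shown to differ between genotypes.

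**Figure D4:**
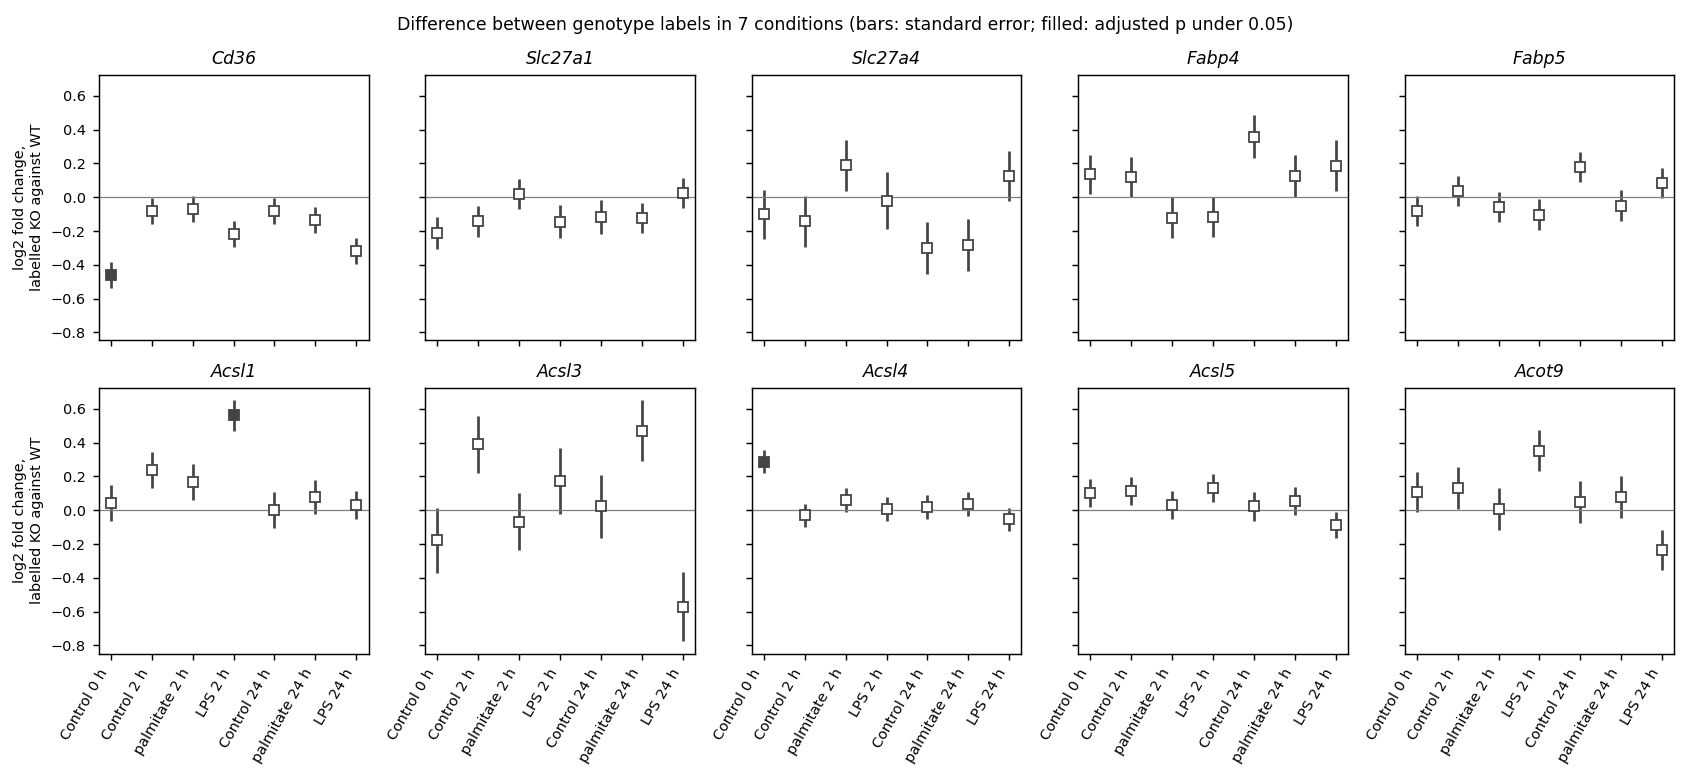
Log2 fold change of libraries labelled KO against WT (vertical axis) in 7 conditions (horizontal axis) for each gene, with standard errors as bars and filled squares for an adjusted p under 0.05. Filled squares are Cd36 and Acsl4 at Control 0 h and Acsl1 at LPS 2 h.

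Other genes of the pathway were read from lists. Among 12 tested of 19 other transporters and binding proteins, palmitate changed 0 in either genotype and time, and LPS at 24 h changed 7 in WT (3 higher, 4 lower) and 10 in libraries labelled KO (5 higher, 5 lower), with list medians of 0.10 and 0.09. Of all genes 39.5% were called in WT and 40.9% in libraries labelled KO at LPS 24 h, shares to set beside this and the next lists. For palmitate the shares ran from 0.112% to 0.877%. Lpl, which frees fatty acids from lipoproteins, fell by 1.55 on the log2 scale in WT and by 1.42 in libraries labelled KO, and Scarb1, the receptor for high-density lipoprotein, fell by 1.34 and 1.30. Msr1, another scavenger receptor, moved the other way from Cd36, by 0.54 and 0.43. Of 14 other acyl-CoA synthetases only 5 passed the filter, and LPS at 24 h changed 2 in WT and 1 in libraries labelled KO, all lower (list medians -0.15 and -0.25), among them Aacs (-0.43 and -0.53), which activates acetoacetate. These 2 of 5 and 1 of 5 stand near or below the 39.5% and 40.9% of all genes.

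Of 14 other thioesterases 8 were tested. Palmitate at 24 h changed 0 in WT and 1 in libraries labelled KO, where 0.852% and 0.877% of all genes were called. That 1 was Acot1, a cytosolic enzyme, which rose from a mean of 1.66 CPM to 6.41 CPM (adjusted p = 0.01605). LPS at 24 h changed 2 of the 8 in WT (1 higher, 1 lower) and 4 in libraries labelled KO (1 higher, 3 lower), beside 39.5% and 40.9% of all genes. It raised Acot7, a brain-type enzyme that macrophages also express, by 0.96 ± 0.11 and 1.18 ± 0.11, and lowered Acot1, from 2.62 to 0.815 CPM in WT and from 1.66 to 0.286 CPM in libraries labelled KO, levels too near that of 3 reads for a fold. Acot2, a mitochondrial enzyme, was lower in libraries labelled KO (-0.80 ± 0.24, adjusted p = 0.005521). The list's median log2 fold change at LPS 24 h was -0.11 in WT and -0.39 in libraries labelled KO, against -0.01 for all genes in both. Among 10 tested of 14 regulators, palmitate changed 0 in either genotype and time, where at most 0.877% of all genes were called. LPS at 24 h changed 5 in each genotype (3 higher, 2 lower, list medians -0.11 and -0.06), near the 39.5% and 40.9% of all genes, with Pparg, the receptor known to drive Cd36 and Fabp4, at -2.15 ± 0.25 and -2.95 ± 0.27. Whether the fall of Pparg had a part in those of Cd36 and Fabp4 was not tested. Nr1h3, the oxysterol receptor LXRα, rose at LPS 24 h by 2.06 ± 0.12 and 2.30 ± 0.12. At LPS 2 h 6 regulators were called in WT (4 higher, 2 lower) and 5 in libraries labelled KO (4 higher, 1 lower), where 23.1% and 23.9% of all genes were called, led by Nfe2l2 (1.23 and 1.22) and Cebpb (0.80 and 1.04).

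Patterns over the 14 group means of log2 CPM are given as descriptions, since the points share libraries. Acsl1 and Acsl5 ran together (Pearson r = 0.92), as did Fabp4 and Fabp5 (0.83), while Acsl5 and Cd36 ran against each other (-0.88). Among 11043 candidate genes, those most like Acsl1 were Fpr2 (0.99), a formyl peptide receptor, Tma16 (0.99) and the chemokine Ccl5 (0.98). Acsl5 was most like Slfn5, Ifi209 and Sp110 (0.99 each), which are known as interferon-inducible genes. Slc27a1 was most like Eci2 (0.77), an enzyme of fatty acid oxidation, Rims3 (0.77) and the carnitine carrier Slc25a20 (0.76), a lower Pearson r than for Acsl1 or Acsl5. By Spearman's rank correlation these stood at 0.77, 0.91 and 0.75, and Ccl5 with Acsl1 at 0.72. Cd36 was most like Rpl3, Nceh1 and Nap1l1 (0.97 each, but 0.741 to 0.771 by rank), and Fabp4 most like Osbpl8 (0.97), Adamtsl5 (0.96) and Lrp12 (0.96).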

How the data were processed

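RNA was sequenced from 42 BMDM libraries (14 groups of 3), made with a stranded total RNA kit and ribosomal depletion. The authors deposited raw counts per Ensembl gene. Per the submitters' processing notes, reads were trimmed with fastp 0.19.11 and aligned and counted per gene with STAR 2.7.3a, on mm10 per the study's methods. The annotation release and strand setting are not given in the sources used here. Table columns name a group but no replicate, so library numbers follow column order. Symbols were taken from a GRCm38 annotation.

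Counts were fitted with edgeR 4.0.16 (R 4.3.3): filterByExpr, TMM scaling, 1 mean per group over 42 libraries, the quasi-likelihood F-test, and p-values adjusted by Benjamini and Hochberg. SE was the log2 fold change divided by the root of F. CPM used TMM-scaled totals. The SE therefore includes the fitted spread between libraries, while the floor of 3 reads covers counting error only. Named were the 10 genes, label and treatment checks, at most 2 genes per direction of each list by adjusted p, and the 3 genes most alike. The members and lists were chosen with earlier results of these data known. The fit was tested on simulated data, whose outcome is not given here, so no result above rests on it. Alternatives were RLE, no filter, fewer libraries, DESeq2 1.42.0, and leaving out each library.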

Additional observations from a re-analysis of the deposited data

Results flagged for a closer look

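Groups of 3 libraries are not tested for stray samples. The results below were singled out because a response differed between the 2 time points by a direct test over both genotypes, as the 24 h response minus the 2 h response on the log2 scale. For palmitate these were Slc27a1 at 0.63, Acsl1 at 0.52 and Cd36 at 0.39. For LPS they were Acsl1 at 1.23, Acsl5 at 0.70, Slc27a1 at 0.61, Acot9 at -0.39, Cd36 at -1.02 and Fabp4 at -1.64. Fabp4 is the gene of the 10 that rose with LPS at 2 h and fell with LPS at 24 h in both genotypes.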

How the results depend on the processing

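No paired analysis was possible because the table's columns carry no replicate numbers. Of 67 called log2 fold changes, 66 kept direction and call with RLE, 66 with DESeq2, 66 with only the libraries compared and 64 without the count filter. Of 702 fits that left out 1 library 653 kept the call, 49 lost it (12 of the 67 results) and 0 reversed. The count of genes called moved by over 1.5 times in 2 genotype comparisons: without the count filter it was 2 at LPS 2 h, where Cd36 was added (-0.22, adjusted p = 0.02764), and 1 at LPS 24 h, where Cd36 was added (-0.32, adjusted p = 4.919e-05), and DESeq2 also gave 1 at LPS 24 h. Leaving out 1 library moved the count for Control 2 h against 0 h between 1 and 3. RLE moved 0 of 140 group levels by over 1 SD, and scaling to the library total moved 25, to 0.891 to 1.05 times the TMM level. Acsl3, at 30 to 133 reads a library, and Slc27a4, at 51 to 164, had the fewest reads and a median SD of 12.6% and 13.3% of the mean, so small changes in them were not detectable at this depth. Length by coding transcript, chosen after seeing the data, changed the order of levels per kilobase. Of the 67 calls, Fabp4 at Control 2 h against 0 h missed the threshold with RLE (adjusted p = 0.05062), and Acsl3 at Control 24 h against 0 h missed it with DESeq2 (0.05022), with fewer libraries (0.05959) and without the filter (0.1296). Without the filter Acsl4 at Control 24 h against 0 h (0.09206) and Acot9 at LPS against palmitate at 24 h (0.0677) missed it too, and Fabp5 at LPS 2 h in libraries labelled KO passed it (0.004453). The causes were not tested.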
